A study of Mus musculus with 48 samples.

Results

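Kupffer cells, the resident macrophages of the liver, were compared between livers of mice given acetaminophen (APAP) 48 h earlier and livers of mice given phosphate-buffered saline (PBS). The 8 libraries compared, of 48 in the series, were chosen by their titles: 4 Kupffer cell libraries at 48 h after APAP, and all 4 Kupffer cell libraries after PBS, 2 of them at 0 h and 2 at 24 h. LAM-like libraries, named after lipid-associated macrophages, were also made at 48 h and were left out. All 8 libraries are total RNA of liver cells labelled KCs from male C57BL/6 mice, and no further allele or agent is named. The age of the mice, the APAP dose and the sorting gate are not given in the sources used here. The labels do not say whether libraries came from separate animals, and p-values here describe only how much the samples themselves varied, which may be technical. No PBS group was taken at 48 h, and the groups at 36 h and 72 h after APAP (4 libraries each) served as neighbours in time.

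Acetaminophen in overdose is turned by hepatocytes into a reactive product that kills cells around the central veins, and the lesion is then cleared and rebuilt. Kupffer cells take up blood-borne and dying material through scavenger, complement and Fc receptors, and can restore their own number by division. A dividing cell makes its G1 cyclins and replication proteins before and during DNA synthesis, and its mitotic kinases, kinesins and B-type cyclins mainly from G2 to mitosis, so that transcripts of these groups mark different stages of the cycle. In injured tissue, macrophages can also take on the lipid-associated program, marked by Gpnmb, Trem2, Cd9 and Spp1.

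Reads counted in genes numbered 15885336 to 23334091 in the 8 libraries, and 17080 of 54735 genes were tested. In a principal component analysis of the 8 libraries, the first component (53.1% of the variance) placed the APAP libraries between -29.7 and -3.79 and the PBS libraries between 13 and 24.3. APAP replicate 4 lay nearest to PBS on this axis. It was also the APAP library nearest to PBS for 222 of the 421 genes called higher (52.7%) and for 138 of the 206 called lower (67%). The second component (22.3%) followed 2 sets that the sample numbers in the file headers form, with the boundary between them at number 25. APAP replicates 1 and 2 and PBS 24 h fell in set 1, and APAP replicates 3 and 4 and PBS 0 h in set 2, so that the PBS time and the set cannot be told apart. The identity of the cells was checked against 10 defining Kupffer cell genes, all of which were measured, and their summed level was 25878 to 38296 CPM (read counts scaled to library size) after APAP and 36891 to 40783 CPM after PBS (exact permutation test, 2-sided, p = 0.0857, 0.2 after adjustment over 14 marker lists).

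Of the 17080 genes tested, 627 (3.67%) were called at an adjusted p below 0.05 in edgeR's quasi-likelihood test with Benjamini-Hochberg adjustment. Of these, 421 (2.46%) were higher and 206 (1.21%) lower at 48 h after APAP, and 220 and 75 of them changed by at least 2-fold. Counts of list members called against PBS are to be read beside these shares. The median log2 fold change over all genes tested was 0.045. The most marked rises belonged to mitotic genes, to the lipid-associated genes Gpnmb and Mmp12 and to the growth factor gene Gdf15, and the most marked falls to metabolic enzymes that hepatocytes express. The number called rested on single libraries. It was 262 and 277 without PBS 24 h replicate 1 or 2, 175 without PBS 0 h replicate 2, and 285, 396 and 375 without APAP replicate 1, 2 or 3, while it was 813 without APAP replicate 4. The calls lower after APAP moved most, from 206 to 47, 84 and 69 without APAP replicate 1, 2 or 3, and to 361 without replicate 4. Without PBS 24 h replicate 1 or 2 they were 62 and 81, and without PBS 0 h replicate 1 or 2 they were 119 and 50. Against PBS 0 h alone 52 genes were called, against PBS 24 h alone 469, within set 1 alone 997 and within set 2 alone 51. Of 101 genes named here and called, 38 were called whichever library was left out. The other calls were lost without at least 1 library, most often PBS 0 h replicate 2 (49 still called), PBS 24 h replicate 1 and APAP replicate 1 (54 each).

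**Figure D1:**
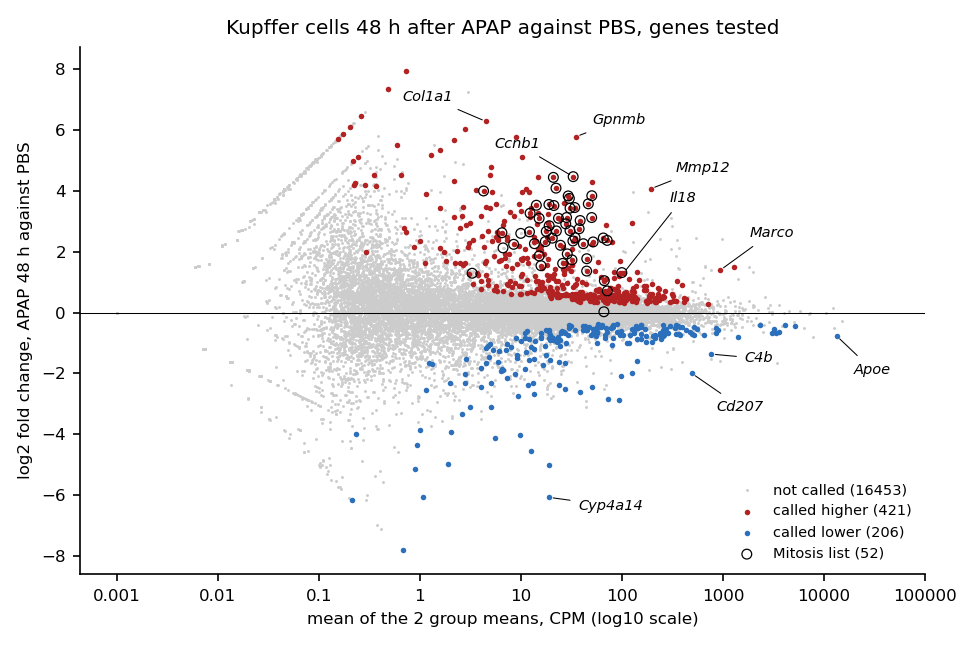
Each point is 1 of the 17080 genes, with the mean of the APAP 48 h and PBS group means in CPM on a log10 axis and the log2 fold change of APAP 48 h against PBS on the vertical axis. Red points are the 421 genes called higher, blue points the 206 called lower, and circles mark the 52 members of the Mitosis list, all of which lie above 0.

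Mitotic genes gave the clearest difference. Ccnb1, the B-type cyclin that activates Cdk1 for entry into mitosis (chr13:100778650-100786570, minus strand, mm10), was read at 81.2, 63.8, 56.2 and 41.2 CPM in the 4 APAP libraries, at 0.293 and 1.23 CPM in PBS 24 h and at 15.1 and 4.53 CPM in PBS 0 h. All APAP libraries lay above all PBS libraries, and PBS 24 h lay below PBS 0 h. The log2 fold change was 4.47 ± 0.70 (SE), with an edgeR adjusted p of 0.000187. Against PBS 0 h alone it was 2.63 and not called (edgeR adjusted p 0.148), and against PBS 24 h alone 6.32 (0.000868). Plk1, the kinase that drives spindle assembly and mitotic exit, stood at 57.2, 45, 33.3 and 29 CPM after APAP, against 0.927 and 1.03 CPM in PBS 24 h and 9.84 and 1.96 CPM in PBS 0 h (log2 fold change 4.09, edgeR adjusted p 0.000187). Of the 52 genes in the Mitosis list, 47 rose and 0 fell, beside 2.46% of all genes tested that rose, and the list's median log2 fold change was 2.64. All 4 APAP libraries exceeded all 4 PBS libraries in 48 of the 52 genes, an order that 6.38% of all genes tested showed.

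Among the other risers were regulators and machinery of each mitotic step. Cdc20, which activates the anaphase-promoting complex, rose by 3.44 on the log2 scale (edgeR adjusted p 3.95e-05), from 3.32 and 2.87 CPM in PBS 24 h and 11.8 and 5.20 CPM in PBS 0 h to 74.3, 60.6, 49.4 and 38.2 CPM. The cytokinesis genes Racgap1, Ect2 and Kif20a rose by 3.13, 2.22 and 3.46 (edgeR adjusted p 7.42e-05, 7.47e-05 and 7.43e-06). Mki67, a marker of cycling cells, was at 167, 121, 81.3 and 72.8 CPM after APAP and at 11.8 to 29.3 CPM after PBS, with no overlap (log2 fold change 2.46, edgeR adjusted p 0.000187). Aspm, Pimreg, Nek2, Nusap1 and Ckap2, which serve spindle poles, chromosomes and microtubules, were among the 12 rises named as largest (3.96 to 5.78). In PBS 24 h, Aspm, Pimreg and Nek2 were read at 0 to 0.872 CPM, so the size of these folds depends on few reads. Foxm1, a transcription factor of G2 and mitotic genes, rose by 3.27 (edgeR adjusted p 0.00736). The 5 members not called were Pbk, Ttk, Espl1, Mybl2 and Pttg1. Pttg1, which codes for securin, was at 63.5 to 72.3 CPM after APAP and 56.8 to 77.4 CPM after PBS. In the annotation used here (GENCODE M21), Plk1, Cdc20, Mki67, Nusap1, Nek2, Ect2 and Kif20a overlap a gene on the other strand, and their counts are uncertain to that extent.

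The count of Mitosis genes called depended on the control, although the direction did not. With PBS 24 h alone as the control, 45 of 52 Mitosis genes were called higher with a median of 3.30, and with PBS 0 h alone 6 with a median of 2.06, 51 of the 52 still being positive. Within set 1 alone 50 were called (median 3.56), and within set 2 alone 4 (median 1.72). Without PBS 0 h replicate 2 the count was 28. Between PBS 24 h and PBS 0 h the list's median was -1.38, with none of its genes called by edgeR in that comparison.

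Promoters of 4 of these genes are shown because their transcripts were all higher after APAP and each holds at least 1 of the motifs searched. The sequences are the 250 bases before the RefSeq start (GRCm38.p6), written 5′ to 3′ on the gene's strand, with capitals marking a match on either strand. The motifs searched were the NF-Y box (CCAAT), the cell cycle homology region (TTTGAA) and an E2F site (TTTNGCGC). They lie at chr13:100786487-100786736 (Ccnb1, minus strand), chr7:122159185-122159434 (Plk1, plus strand), chr4:118437344-118437593 (Cdc20, minus strand) and chr15:99651657-99651906 (Racgap1, minus strand).
Ccnb1: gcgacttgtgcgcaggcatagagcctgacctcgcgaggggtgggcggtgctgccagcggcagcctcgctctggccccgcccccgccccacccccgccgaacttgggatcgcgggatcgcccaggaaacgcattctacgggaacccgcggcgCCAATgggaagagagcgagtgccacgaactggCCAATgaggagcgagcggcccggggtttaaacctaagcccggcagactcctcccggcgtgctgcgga
Plk1: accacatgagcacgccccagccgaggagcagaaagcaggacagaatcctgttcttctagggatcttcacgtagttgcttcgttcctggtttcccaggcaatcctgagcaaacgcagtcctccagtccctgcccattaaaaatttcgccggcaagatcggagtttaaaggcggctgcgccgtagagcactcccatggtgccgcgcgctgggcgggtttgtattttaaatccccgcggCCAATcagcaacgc
Cdc20: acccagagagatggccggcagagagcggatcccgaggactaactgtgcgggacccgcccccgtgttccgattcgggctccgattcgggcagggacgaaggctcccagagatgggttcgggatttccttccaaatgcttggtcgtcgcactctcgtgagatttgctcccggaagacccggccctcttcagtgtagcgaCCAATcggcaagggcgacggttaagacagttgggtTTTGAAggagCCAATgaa
Racgap1: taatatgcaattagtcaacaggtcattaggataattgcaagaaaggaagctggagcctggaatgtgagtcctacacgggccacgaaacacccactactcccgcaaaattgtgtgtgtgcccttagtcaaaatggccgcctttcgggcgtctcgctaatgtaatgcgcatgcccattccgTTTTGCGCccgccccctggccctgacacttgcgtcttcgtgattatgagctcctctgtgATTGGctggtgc
Ccnb1 held 2 CCAAT boxes, Plk1 held 1, and Cdc20 held TTTGAA 18 bases before the start together with 2 CCAAT boxes. Racgap1 held TTTTGCGC, and a CCAAT box on the other strand, written ATTGG here. A promoter was found for 38 of the 47 Mitosis genes called higher. CCAAT occurred in 28 of the 38 (73.7%), against 34.5% of all 27025 promoters and 36.4% of those of 11402 genes tested, and TTTGAA in 12 (31.6%), against 16.3% and 11.2%. Both occurred together in 11 (28.9%), against 5.73% of all promoters. TTTNGCGC was in 3 of the 38 (7.89%) and in 1.15% of all promoters. Over the 42 promoters of the whole Mitosis list, called or not, the shares were much the same. CCAAT occurred in 71.4% of them, TTTGAA in 31%, both in 28.6% and TTTNGCGC in 7.14%. Most of the list was called, so these shares cannot be tied to the rise after APAP. In the whole DNA replication list, called or not, 30 of 36 genes had a promoter. The NF-Y box occurred in 18 of these, TTTGAA in 13.3% and the E2F site in 16.7%. Of the 5 replication genes called higher, 2 held the NF-Y box, 0 TTTGAA and 0 the E2F site. The shares are descriptions of letters within a fixed window, not of binding.

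Replication genes were less far from PBS at this time. Of the 36 genes in the DNA replication list, 5 rose and 0 fell, beside 2.46% and 1.21% of all genes tested. The list's median log2 fold change was 0.77. Tyms and Rrm1, which supply deoxynucleotides, rose by 1.43 and 1.19 (edgeR adjusted p 0.00392 and 0.00497). Pcna, the sliding clamp of DNA polymerases, was at 111, 121, 97.7 and 108 CPM after APAP and at 58.3 to 81.2 CPM after PBS (log2 fold change 0.74, edgeR adjusted p 0.00986). Rfc5, a subunit of the clamp loader, and Tk1, a thymidine kinase, also rose (0.96 and 1.1). Mcm2, part of the replicative helicase, stood at 74.4, 121, 59.1 and 43.95 CPM against 44.1 to 65.8 CPM, and the groups overlapped (edgeR adjusted p 0.566). Without PBS 0 h replicate 2, none of the DNA replication genes was called, and without PBS 24 h replicate 1 or 2 or APAP replicate 1 or 2 the calls were 3, 2, 3 and 3. The 20 genes of the G1 cyclins and E2F factors list gave 0 calls by edgeR, 6 positive and 3 negative at an unadjusted p below 0.05, and 1 higher and 1 lower by DESeq2. Ccnd1, the growth-factor-responsive D-type cyclin, was at 12.3 to 40.9 CPM after APAP and at 32.3 to 51.7 CPM after PBS (edgeR adjusted p 0.0706). Cdkn2c, an inhibitor of the G1 cyclin-dependent kinases, rose by 1.75 (edgeR adjusted p 0.00101).

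The order of these groups in time was examined by testing 48 h directly against the neighbouring times, comparisons that use the same 48 h libraries as the one with PBS. Against 36 h, 2170 genes (12.7%) were called, 678 higher (3.97%) and 1492 lower (8.74%), a number that was 1406 without 36 h replicate 3. In the DNA replication list 35 of 36 genes were lower at 48 h than at 36 h (median -1.88), and in the G1 cyclins and E2F factors list 13 of 20 (median -1.12). Ccne1, the cyclin of the G1 to S transition, was at 67.7, 48.3, 53.4 and 55.7 CPM at 36 h and at 6.70, 11.3, 8.61 and 6.63 CPM at 48 h. The groups were far apart, with a log2 fold change of -2.76 (edgeR adjusted p 3.95e-05). Cdc6, which loads the replicative helicase onto origins, fell from 106 to 122 CPM at 36 h to 12.9 to 30.1 CPM at 48 h (log2 fold change -2.60, edgeR adjusted p 0.000492). Ccne2, Lrr1 and Psmc3ip completed the 5 largest falls (-2.73, -2.56 and -2.53). The Mitosis list did not move one way, with 4 genes higher and 5 lower at 48 h and a median of -0.15. Ccnb2, the other B-type mitotic cyclin, was among the 4 and was at 14.7, 17.8, 18.5 and 26.5 CPM at 36 h, against 112, 89.0, 103 and 63.5 CPM at 48 h (log2 fold change 2.24, edgeR adjusted p 0.00525). Thbs1, Nr1d1, Myom1 and Hist1h1c, which serve the matrix, the clock, muscle-type filaments and chromatin, made up the 5 largest rises with Ccnb2 (3.74, 3.63, 2.25 and 2.17). Cdc20 was also higher at 48 h (1.38, edgeR adjusted p 0.0334), while Ccnb1, at 33.9 to 51.7 CPM at 36 h, was not called (0.54, edgeR adjusted p 0.633).

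Against 72 h, 777 genes (4.55%) were called, 295 higher at 48 h (1.73%) and 482 lower (2.82%). The Mitosis list had 34 of 52 genes higher at 48 h and 0 lower (median 1.87), and the DNA replication list 27 of 36 higher and 0 lower (median 1.36). Ccnb1 was at 22.03, 22.2, 11.5 and 2.46 CPM at 72 h, below each 48 h library (log2 fold change 2.06, edgeR adjusted p 0.0409). The 5 largest rises against 72 h were Neil3, Ncapg, Brca1, Rad51ap1 and Ddias (2.65 to 2.95), all genes of DNA repair, replication or chromosome condensation. The 5 largest falls, Akr1c20, Rgn, Sult1d1, Dmgdh and Gulo (-3.73 to -4.39), are enzymes that hepatocytes express. The Hepatocyte list, a set of 26 marker genes, had 20 lower at 48 h than at 72 h, and its summed level was 2596 to 29860 CPM at 72 h. Its part in the falls was not tested. The number called against 72 h was 224 without 72 h replicate 2, 447, 310 and 392 without 48 h replicate 1, 2 or 3, and 0 in an edgeR fit of only these 2 groups, where 1700 genes had an unadjusted p below 0.05 (1178 were called by DESeq2).

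**Figure D2:**
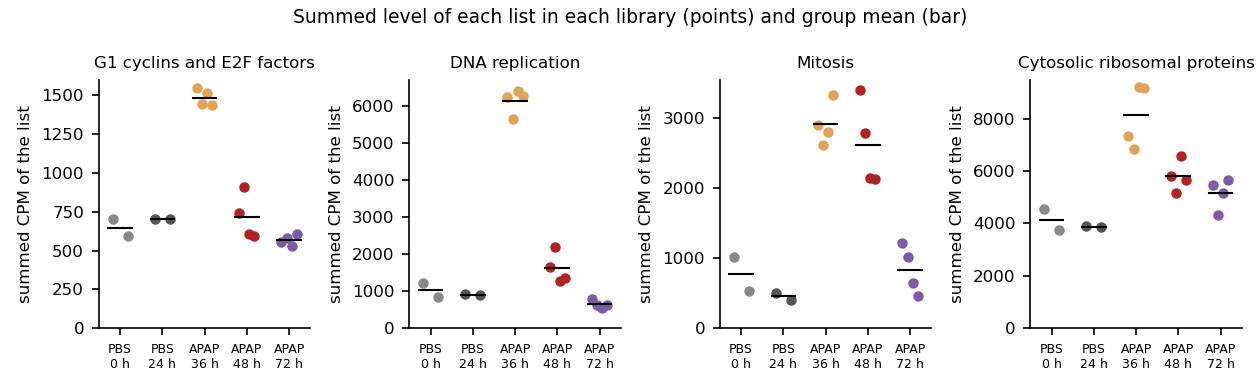
Summed CPM of the genes of 4 lists in each library of 5 groups, with 1 point per library and the group mean as a bar. The DNA replication sum was 1276 to 2189 at 48 h and 5639 to 6403 at 36 h, while the Mitosis sum was 2124 to 3390 at 48 h and 2614 to 3330 at 36 h, overlapping, and 467 to 1219 at 72 h.

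Genes of the lipid-associated macrophage program rose beside the mitotic genes. Gpnmb, a transmembrane glycoprotein of lysosome-rich macrophages (chr6:49036546-49070929, plus strand, mm10), was at 139, 61.9, 24 and 50.2 CPM after APAP, against 2.1 and 0.975 CPM in PBS 24 h and 0.666 and 1.34 CPM in PBS 0 h. The lowest APAP library exceeded the highest PBS library, and the APAP libraries differed widely among themselves. The log2 fold change was 5.79 ± 1.11 (SE, edgeR adjusted p 0.00153), the largest of the 12 rises named. Against PBS 0 h alone it was 6.1 and not called (edgeR adjusted p 0.07). Gpnmb was at 4.24 to 21.2 CPM at 36 h and at 1152, 509.9, 133 and 128 CPM at 72 h, where replicates 1 and 2 lay above every 48 h library (edgeR adjusted p 0.0881 against 36 h and 0.0661 against 72 h).

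Of the 29 genes in the Lipid-associated macrophage list, 9 rose and 1 fell (median 0.78), beside 2.46% and 1.21% of all genes tested. Mmp12, the macrophage elastase, was at 779, 462, 146 and 74.5 CPM after APAP and at 16.1 to 32.3 CPM after PBS (log2 fold change 4.07, edgeR adjusted p 0.00126). Cd9, a tetraspanin, stood at 60.3, 43.4, 38.9 and 27.5 CPM against 8.31 to 11.1 CPM (log2 fold change 2.15, edgeR adjusted p 0.00101). Trem2, a lipid receptor, was at 116, 81.2, 66.1 and 47 CPM against 37.4 and 44.9 CPM in PBS 24 h and 23.1 and 19.7 CPM in PBS 0 h, a small gap in the case of APAP replicate 4 (log2 fold change 1.39, edgeR adjusted p 0.00947). Spp1, which codes for osteopontin, had 5.78 to 19.2 CPM after APAP and 0 to 0.718 CPM after PBS, with 27 reads in all 4 PBS libraries together. Lgals1 and Cd63 rose by 2.19 and 2.18, and Anxa2 and Plin2, a coat protein of lipid droplets, by 0.89 each. Apoe, the apolipoprotein of lipid efflux, went the other way, from 15074 to 18698 CPM after PBS to 8310 to 12744 CPM after APAP (log2 fold change -0.77, edgeR adjusted p 0.00265). The summed level of the Lipid-associated macrophage list was lower after APAP (33275 to 41032 CPM) than after PBS (41867 to 45119 CPM). With PBS 0 h alone, or within set 2 alone, 1 member was called higher, and without PBS 24 h replicate 1, PBS 0 h replicate 2 or APAP replicate 1 the count was 4, 4 and 5. Without PBS 24 h replicate 2 or PBS 0 h replicate 1 it was 6. The Trem2 call was lost against PBS 24 h alone, and the Spp1 call against either PBS group alone. With 1 library left out, each of these 2 calls was lost in 3 cases. Spp1 overlaps a predicted gene on its own strand, and Mmp12 and Cd9 overlap genes on the other.

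**Figure D3:**
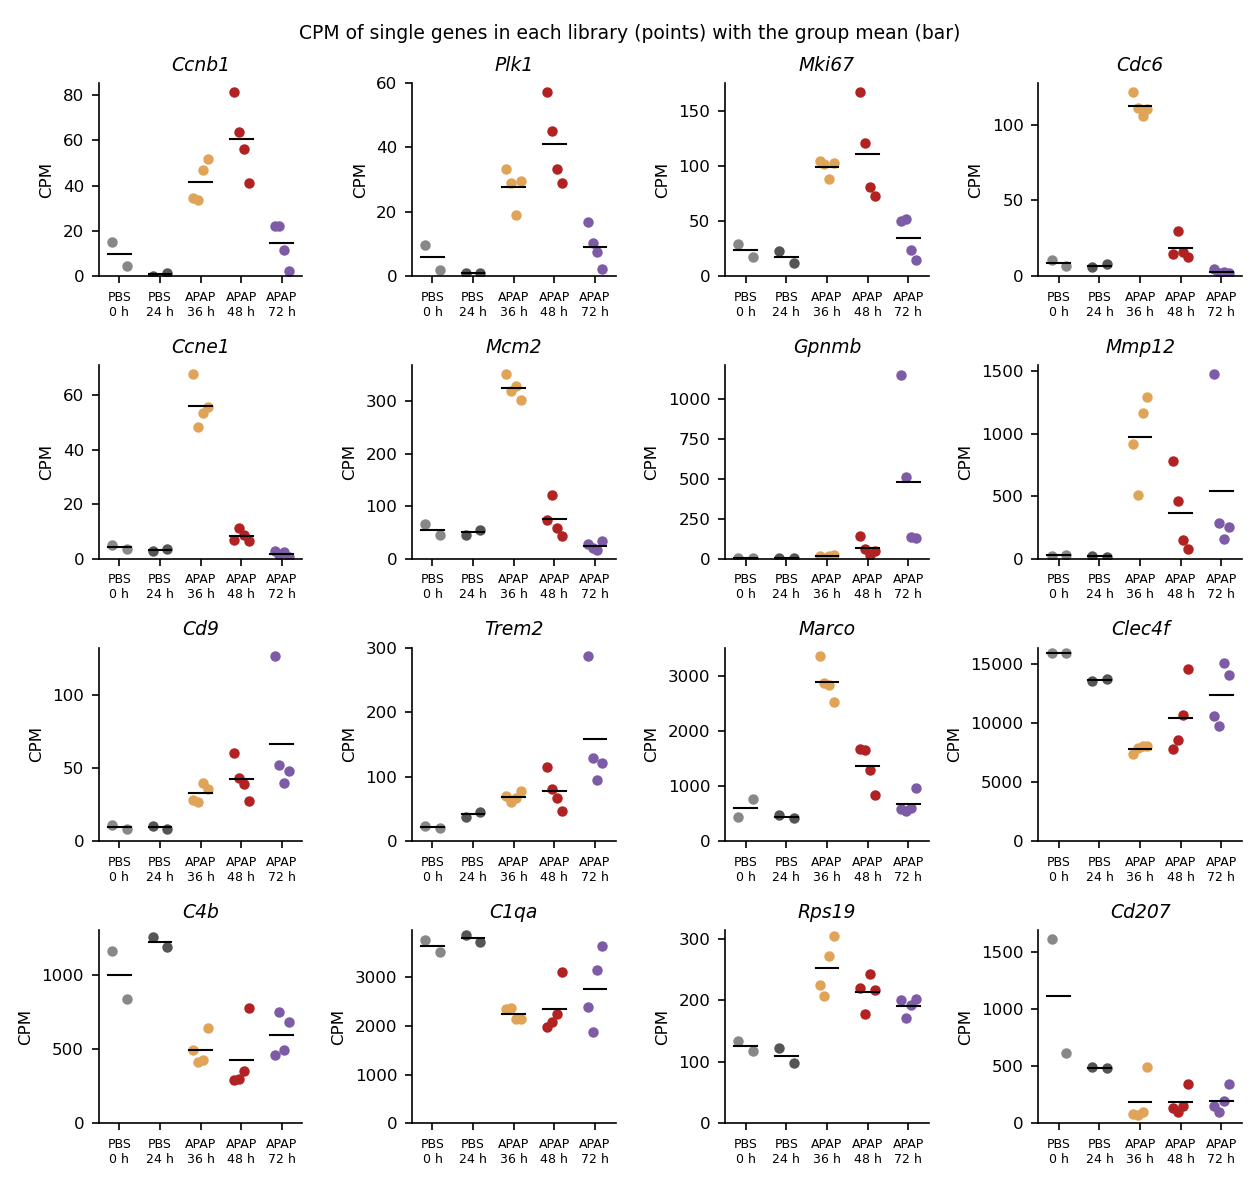
CPM of 16 genes in each library of the 5 groups, with 1 point per library and the group mean as a bar on axes that start at 0. Ccnb1 and Plk1 are highest at 48 h, Cdc6, Ccne1 and Mcm2 at 36 h, and Gpnmb at 72 h, where its libraries spread from 128 to 1152 CPM.

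Genes that define Kupffer cells moved less, and in both directions. Of the 24 genes in the Kupffer cell identity list, 2 rose and 3 fell, beside 2.46% and 1.21% of all genes tested. The list's median was -0.33. Among the 10 defining Kupffer cell genes, 1 rose and 2 fell, with 1 positive and 7 negative at an unadjusted p below 0.05 (edgeR). Marco, a scavenger receptor for particles and bacteria, was at 1671, 1643, 1279 and 833 CPM after APAP and at 410 to 768 CPM after PBS (log2 fold change 1.40, edgeR adjusted p 0.00877). Marco had been higher still at 36 h (2513 to 3357 CPM, log2 fold change of 48 h against 36 h -1.09, edgeR adjusted p 0.0198). Fabp7, a fatty acid binding protein, rose by 1.06 against both PBS groups together, but PBS 0 h (411 and 415 CPM) was itself far above PBS 24 h (98.4 and 114 CPM), and the APAP libraries stood at 370 to 484 CPM. Vsig4, the complement receptor of Kupffer cells, fell by 0.55 (edgeR adjusted p 0.0339), with 2078 to 3599 CPM after APAP and 3593 to 4219 CPM after PBS. APAP replicate 4 lay within the PBS range. Folr2 and Siglec1, 2 further surface markers, fell by 0.73 and 0.53. Clec4f, the lectin that marks mouse Kupffer cells, was at 7764, 8541, 10712 and 14556 CPM against 13569 to 15942 CPM, and Timd4, which binds phosphatidylserine exposed by dying cells, was at 632, 728, 916 and 1021 CPM against 1148 to 1262 CPM. These 2 genes were not called (edgeR adjusted p 0.117 and 0.0647). Cd5l, a secreted scavenger protein, stood at 6931 to 7835 CPM against 6787 to 7826 CPM (edgeR adjusted p 0.978). In RNA of a bulk cell population, fewer cells of a type and less RNA per cell cannot be told apart. Of the Kupffer cell identity genes, 0 fell without any 1 of APAP replicates 1 to 3 or of the PBS libraries, and 7 without APAP replicate 4.

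Among scavenger receptors, Colec12 and Stab2, which bind modified lipoproteins and hyaluronan, rose by 1.66 and 0.46 together with Marco, 3 of the 15 Scavenger receptors measured, while the list's median was -0.01 and 0 fell. Stab2 was also the 1 of 21 genes called in the Liver sinusoidal endothelial cell marker list. The summed level of that list overlapped, at 797 to 1234 CPM after APAP and 867 to 1085 CPM after PBS. Gla, a lysosomal galactosidase, rose by 1.58 (edgeR adjusted p 0.000575), and 4 of 34 genes of the list Lysosomal hydrolases and proton pump rose and 1 fell. Axl, a receptor for apoptotic cells, was lower (-0.40, edgeR adjusted p 0.0216), at 1906 to 2189.7 CPM against 2329.9 to 2990.3 CPM, a call lost against PBS 0 h alone and in 7 of the 8 cases with 1 library left out, the exception being APAP replicate 4.

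Complement genes stood out among those lower after APAP. C4b, the complement component of the classical and lectin pathways (chr17:34728380-34743882, minus strand, mm10), was at 289, 298, 352 and 778 CPM after APAP, against 1253 and 1187 CPM in PBS 24 h and 1162 and 836 CPM in PBS 0 h. The groups did not overlap, but APAP replicate 4 stood apart from the other APAP libraries, near the lower PBS 0 h library. The log2 fold change was -1.36 ± 0.25 (SE, edgeR adjusted p 0.000805). Within set 1 alone it was -2.08 (3.2e-05), and within set 2 alone -0.82 and not called (0.44). C4b has a near-identical neighbour in the mouse genome, so reads shared by the copies are uncertain. Of the 21 Complement components measured, 6 fell and 0 rose (median -0.59), beside 1.21% of all genes tested that fell. In 7 of them all 4 APAP libraries lay below all 4 PBS libraries, an order that 5.84% of all genes tested showed. C1qa, C1qb and C1qc, the chains of C1q, fell by 0.66, 0.45 and 0.42 (edgeR adjusted p 0.00338, 0.0164 and 0.0423). C1qa was at 1979, 2080.4, 2251 and 3109.6 CPM against 3509 to 3864 CPM. C2, a protease of the classical pathway, fell by 0.58. In the Complement and Fc receptors list, Fcgr4, C3ar1 and Vsig4 fell (-0.71, -0.70 and -0.55), 3 of 13. Without APAP replicate 1 the Complement components called were 2, without PBS 24 h replicate 1 or 2, PBS 0 h replicate 1 or APAP replicate 2 or 3 they were 3, and without APAP replicate 4 they were 10.

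Antigen presentation and interferon genes were called lower in small numbers, to be read beside the 1.21% of all genes tested that fell. Tapbp, H2-D1 and H2-T23, which load or form MHC class I molecules, fell by 0.57, 0.63 and 0.63 (edgeR adjusted p 0.0106, 0.0194 and 0.0297), 3 of 18 in their list. Ctss, the cathepsin that trims the class II invariant chain, was the 1 member of 15 called in the MHC class II presentation list (-0.65). With 1 library left out the calls of H2-D1 and H2-T23 were lost in 6 of 8 cases, that of Ctss in 4 and that of Tapbp in 2. The summed level of the MHC class II presentation list was 4266, 4314, 6893 and 11245 CPM after APAP and 10738 to 18430 CPM after PBS, and only APAP replicate 4 reached the PBS range. Irf7, a transcription factor of interferon genes, fell by 0.74 (edgeR adjusted p 0.041), 1 of 32 genes of the Type I interferon response list, a call lost in 7 of the 8 cases and kept without APAP replicate 4. The 16 Guanylate-binding and immunity-related GTPases gave 0 calls by edgeR, with 8 negative and 0 positive at an unadjusted p below 0.05, and 3 lower by DESeq2.

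Inflammatory transcripts differed mostly between libraries. Il18, the precursor of an inflammasome cytokine, was at 124, 133, 172 and 162 CPM after APAP and at 54.1 to 67.5 CPM after PBS (log2 fold change 1.30 ± 0.15 SE, edgeR adjusted p 3.43e-06). It was the firmest call of its list and was kept in every alternative tried, the single-control and single-set ones included, and it overlaps 2 genes on the other strand. Osm, a cytokine that acts on hepatocytes, was called with 0.405 to 1.79 CPM after APAP and 4 reads in all PBS libraries. Tnf, by contrast, was at 578, 339, 13.6 and 5.85 CPM after APAP and at 57.1 and 27.7 CPM in PBS 24 h and 6.31 and 4.06 CPM in PBS 0 h. Both set 1 APAP libraries were above all others, both set 2 APAP libraries were below PBS 24 h, and Tnf was not called (edgeR adjusted p 0.168). Il1b, another inflammasome substrate, was at 450 to 982 CPM against 252 to 757 CPM (edgeR adjusted p 0.635). Of 30 genes in the list Inflammatory cytokines and NF-kB feedback 2 rose and 0 fell. Ccl12, a ligand of Ccr2, was the 1 of 23 Chemokines called (1.64, edgeR adjusted p 0.0369), at 3.25 to 9.69 CPM.

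Immediate early genes, which respond within minutes to growth factors and to handling of cells, also followed the sets. Egr2 and Egr3 rose by 2.95 and 3.97 (edgeR adjusted p 0.0101 and 0.00906), 2 of 21, with Egr2 at 366, 223, 203 and 87.4 CPM after APAP, 55.3 and 33.9 CPM in PBS 24 h and 17.3 and 18.9 CPM in PBS 0 h. The summed level of the Immediate early genes was 21349.5 and 18657 CPM in the set 1 APAP libraries, 8679.8 and 5739 CPM in those of set 2, 10677 and 7872 CPM in PBS 24 h and 2777 and 2461 CPM in PBS 0 h. Dusp5, a phosphatase of the MAP kinase ERK, rose by 4.05 and was at 39, 31.1, 8.32 and 5.63 CPM against 0.564 to 4.05 CPM. Within set 1 alone the log2 fold change of Egr2 was 2.71 (edgeR adjusted p 0.0276) and within set 2 alone 3 (0.199), and for Egr3 it was 2.77 (0.0604) and 5.06 (0.105). The Egr2 and Egr3 calls were each lost without any 1 of the 4 PBS libraries, and those of Egr2 and Dusp5 also without APAP replicate 1. The 2 of 21 stand beside the 2.46% of all genes tested that rose. Gdf15, a stress-induced growth factor, was at 208, 136, 28.2 and 11 CPM against 2.52 to 10.7 CPM (log2 fold change 4.29, edgeR adjusted p 0.0162). The lowest APAP library was close to the highest PBS library, and the Gdf15 call was lost without any 1 of the PBS libraries and without APAP replicate 1. Psat1, an enzyme of serine synthesis, rose by 2.39, and with Gdf15 it made 2 of 17 genes of the Integrated stress response list. The 19 Unfolded protein response genes gave 0 calls by edgeR, 1 positive at an unadjusted p below 0.05, and 0 by DESeq2.

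Ribosomal protein genes were uniformly higher by a small amount. Rps19, of the small subunit, was at 220, 178, 242 and 216 CPM after APAP and at 97.4 to 133 CPM after PBS (log2 fold change 0.86, edgeR adjusted p 0.000187). Rps20 and Rps2 rose by 0.81 and 0.68. Of 32 Cytosolic ribosomal proteins 21 rose and 0 fell, beside 2.46% of all genes tested that rose. The median was 0.52, and all 32 had a positive log2 fold change. All APAP libraries exceeded all PBS libraries in 29, against the 6.38% of all genes tested. Against 36 h the same list had 23 of 32 lower and 0 higher (median -0.50). With the summed level of hepatocyte markers as a covariate 13 Cytosolic ribosomal proteins were called, with PBS 0 h alone 3, within set 2 alone 4, and without PBS 0 h replicate 2 there were 7. Without PBS 24 h replicate 1 or 2 the count was 12 and 13, and without APAP replicate 1 or 3 it was 13 each. Genes of the Nuclear-encoded respiratory chain showed 5 rises of 32 and 0 falls (median 0.26), among them Uqcrc1, Sdhb, Atp5a1 and Cox4i1 between 0.27 and 0.48. Ribosomal protein genes have many processed pseudogenes that can take reads. The 32 Ribosome biogenesis genes gave 0 calls by edgeR against PBS, 4 positive and 1 negative at an unadjusted p below 0.05, and 2 higher by DESeq2, whereas 16 of them were lower than at 36 h.

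**Figure D4:**
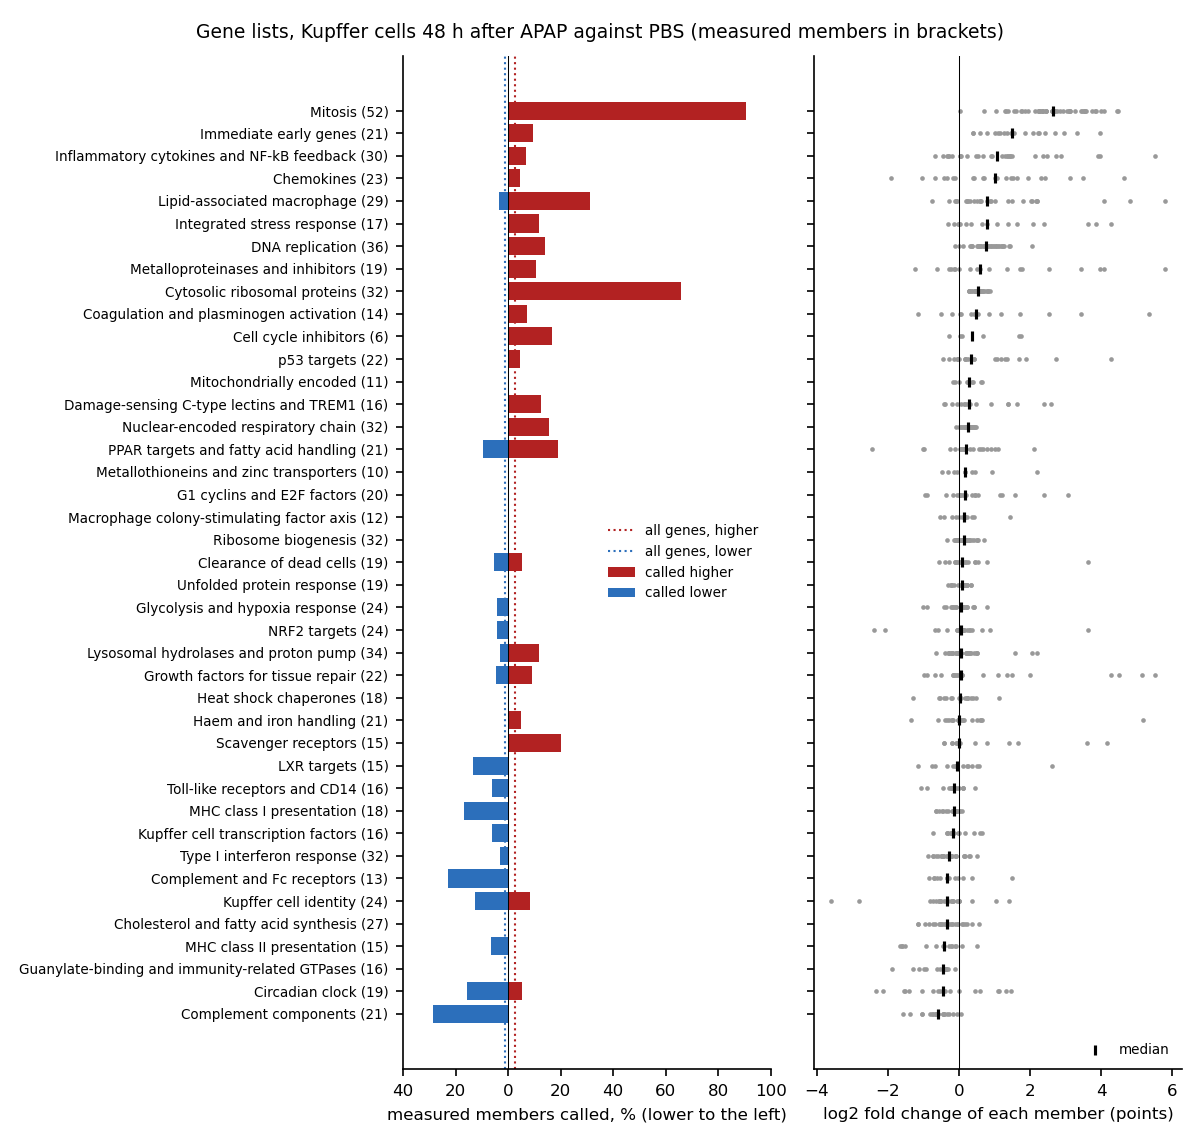
For each of 41 lists (measured members in brackets), the left panel gives the percent of measured members called higher (red) or lower (blue) at 48 h after APAP, with dotted lines at 2.46% and 1.21% for all genes tested. The right panel gives the log2 fold change of every member and the median. Mitosis and Cytosolic ribosomal proteins have the largest shares called higher, and Complement components the largest share called lower.

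Other lists had isolated calls. Irak3, an inhibitor of Toll-like receptor signalling, fell by 0.91 (edgeR adjusted p 0.0371), the 1 of 16 genes called in the Toll-like receptors and CD14 list. Clec4d, a lectin receptor, rose by 1.64, and with Trem2 it made 2 of 16 in the list Damage-sensing C-type lectins and TREM1. Plau, the urokinase-type plasminogen activator, rose by 1.71 (edgeR adjusted p 0.0437). It was at 12.2, 8.9, 4.33 and 2.08 CPM after APAP and at 1.59 to 3.37 CPM after PBS, and APAP replicate 4 lay within the PBS range. Plau was the 1 of 14 in the list Coagulation and plasminogen activation, and with Mmp12 2 of 19 Metalloproteinases and inhibitors. Pdgfb, a growth factor for mesenchymal cells, fell by 0.99, from 28.5 to 43.9 CPM to 16.5 to 21.4 CPM, while Gdf15 and Osm rose, among 22 Growth factors for tissue repair. Gdf15 was also the 1 of 22 p53 targets called. Gsta3, a glutathione transferase that hepatocytes also express, fell by 2.38, the 1 of 24 NRF2 targets called. Lcn2, an iron-binding protein, was called with 26 reads in all PBS libraries, all of them from PBS 24 h replicate 1, the 1 of 21 in the Haem and iron handling list. Bnip3, a mitophagy receptor, fell by 1.02, the 1 of 24 in the Glycolysis and hypoxia response list, of which 11 were lower than at 36 h. With 1 library left out, the calls of Irak3, Clec4d, Plau, Pdgfb, Gsta3, Lcn2 and Bnip3 were each lost in 5 to 7 of the 8 cases. Irf7 was also the 1 of 16 Kupffer cell transcription factors called.

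Among lists with 0 calls by edgeR, the 18 Heat shock chaperones had 1 gene higher and 4 lower at an unadjusted p below 0.05 and 0 by DESeq2. The 10 Metallothioneins and zinc transporters had 4 higher and 0 by DESeq2, the 11 Mitochondrially encoded genes had 0 and 0 by DESeq2, and the 12 genes of the Macrophage colony-stimulating factor axis had 1 higher and 2 lower, with 1 lower by DESeq2. Csf1r, the receptor of that axis, was at 4209 to 6706 CPM after APAP and at 7117 to 7609.6 CPM after PBS, without overlap (log2 fold change -0.52, edgeR adjusted p 0.0893). Adgre1 and Fcgr1, general macrophage surface genes, were likewise not called (-0.42 and -0.34, edgeR adjusted p 0.162 and 0.247).

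Lipid handling was divided. Angptl4, an inhibitor of lipoprotein lipase and a target of PPAR receptors, was at 23.4, 23.8, 29.2 and 19.9 CPM after APAP and at 4.15 to 6.69 CPM after PBS (log2 fold change 2.1, edgeR adjusted p 0.00526). Acadl and Hadha, enzymes of mitochondrial fatty acid oxidation, rose by 0.56 and 0.31, and Plin2 rose as given above. Acsl1, which activates fatty acids, fell by 0.98 (edgeR adjusted p 0.0018). In all, 4 of 21 genes of the list PPAR targets and fatty acid handling rose and 2 fell, beside 2.46% and 1.21% of all genes tested. Pltp, which transfers phospholipids between lipoproteins, fell by 0.67 and with Apoe made 2 of 15 LXR targets. The calls of Angptl4 and Pltp were lost against either PBS group alone. With 1 library left out, that of Angptl4 was kept and that of Pltp was lost in 5 cases. The 27 genes of Cholesterol and fatty acid synthesis gave 0 calls by edgeR, 1 positive and 6 negative at an unadjusted p below 0.05, and 1 lower by DESeq2. Of these 27, 12 were lower than at 72 h and 0 higher (median -0.87).

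The 12 largest falls among well-read genes included Cyp4a14, Cyp4a10, Mup17, Keg1, Cyp4a12a, Fabp1, Car3, Akr1c14, Acaa1b, Tdo2 and Uox, genes that hepatocytes express at high level. Cyp4a14, a fatty acid hydroxylase, was at 0.515, 0, 0 and 1.47 CPM after APAP and at 66.8 and 35.9 CPM in PBS 24 h and 22.5 and 25.4 CPM in PBS 0 h (log2 fold change -6.07, edgeR adjusted p 0.00553). Cyp4a10, its close relative, was at 0.405 to 1.95 CPM against 23 to 58 CPM (log2 fold change -5.01, edgeR adjusted p 0.00172). Cyp4a and Mup genes belong to families of similar copies, so reads may be split between them. The 26 genes of the Hepatocyte list had reads in all 8 libraries, none of them being at 0 in any. Their summed level was 3569.8, 2523, 1512 and 3886 CPM after APAP and 4142 to 6734 CPM after PBS, without overlap (exact permutation test, 2-sided, p = 0.0286, the smallest that 4 against 4 libraries can give, 0.1 after adjustment). Fabp1 and Apoa2 were the 2 of 26 called lower, and the median was -1.12. With the summed level as a covariate, 9 of the 12 falls were still called, between -1.34 and -4.95 over all 12, and Mup17, Car3 and Akr1c14 were not. Fabp1 is both in the sum and among the 12 falls, and the sum itself did not overlap between the groups. The part of hepatocyte RNA in these falls was not tested. With 1 library left out, the calls of Mup17, Car3 and Apoa2 were lost in 7 of the 8 cases, and those of Akr1c14 and Uox in 6. Those of Cyp4a12a, Acaa1b and Tdo2 were lost in 5, and that of Fabp1 in 1. Cyp4a14, Cyp4a10 and Keg1 were called whichever library was left out. Against PBS 0 h alone, Cyp4a10 was the only one of the 12 falls still called.

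Clock genes were called both against PBS and between the PBS groups. For these genes time of collection cannot be told apart from treatment, nor PBS time from the set. Cry1, Cry2 and Per2, repressors of the circadian clock, fell by 1.40, 1.51 and 1.56 (edgeR adjusted p 0.0102, 0.0391 and 0.0175), and Bhlhe40, another repressor, rose by 1.33 (edgeR adjusted p 0.019), 4 of 19 in the Circadian clock list. The 1 rise and 3 falls stand beside 2.46% and 1.21% of all genes tested. Per2 was at 3.49, 15.5, 8.73 and 6.5 CPM after APAP, 45.6 and 50.01 CPM in PBS 24 h and 14.97 and 11.6 CPM in PBS 0 h. APAP replicate 2 thus lay above both PBS 0 h libraries. All 4 calls were lost against PBS 0 h alone. With 1 library left out, the Cry2 call was lost in all 8 cases, those of Per2 and Bhlhe40 in 6 each, and that of Cry1 without APAP replicate 1 or PBS 0 h replicate 2. Between PBS 24 h and PBS 0 h, 9 genes (0.0527%) were called, 4 higher at 24 h (0.0234%) and 5 lower (0.0293%), with 1145 at an unadjusted p below 0.05 and 24 by DESeq2. Without PBS 24 h replicate 1 or 2 or PBS 0 h replicate 1 or 2 the number was 0, 3, 3 and 2. Dbp, a clock output factor, and the chaperone genes Dnaja1 and Bag3 were higher in PBS 24 h (3.09, 1.86 and 1.72), and Arntl, the activator of the clock, Fabp7 and Tab1 were lower (-2.73, -1.96 and -1.49). Arntl was at 10.3 to 21.7 CPM at 48 h after APAP, between PBS 24 h (2.64 and 5.28 CPM) and PBS 0 h (22.6 and 29.8 CPM). The median log2 fold change of the Circadian clock list was -1.25 against PBS 24 h alone and -0.027 against PBS 0 h alone. Against 36 h, Nr1d1, a repressor of Arntl, was 3.63 higher and Dbp 2.11 higher on the log2 scale (edgeR adjusted p 2.11e-06 and 0.000483). The hour of the day at which livers were taken is not given in the sources used here. Dbp, Nr1d1, Arntl, Cry2 and Bhlhe40 overlap genes on the other strand.

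**Figure D5:**
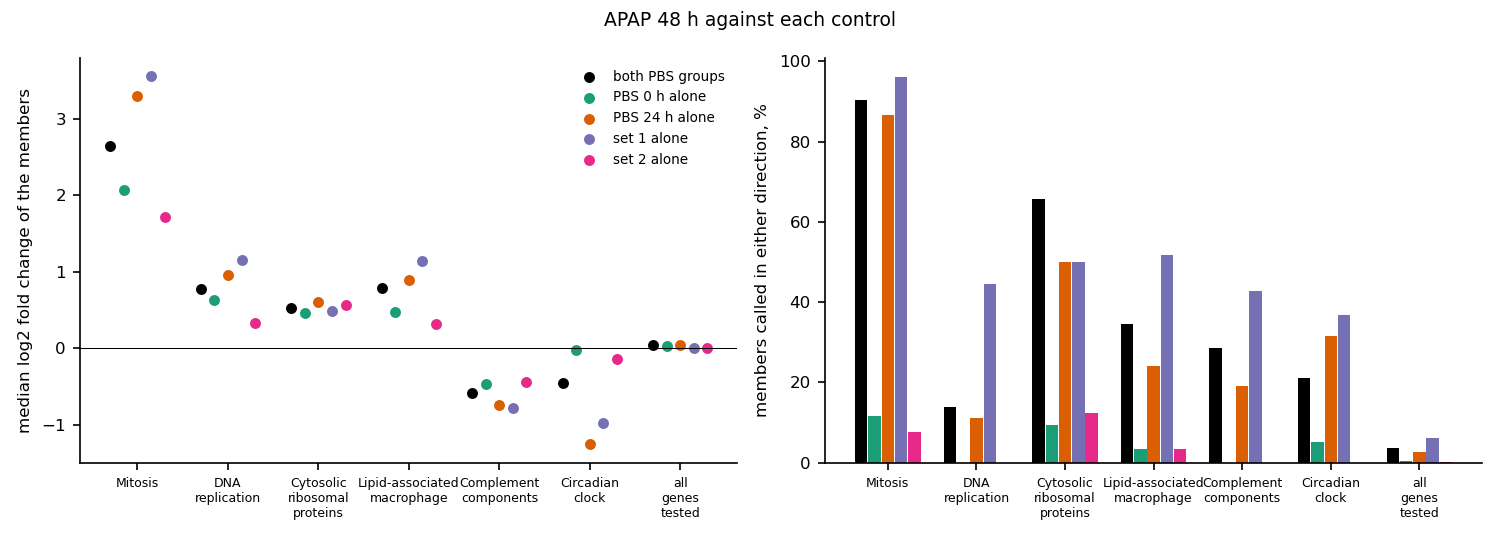
Median log2 fold change of 6 lists and of all genes tested (left) and the percent of genes called in either direction (right) at 48 h after APAP, against both PBS groups, each PBS group alone, or the PBS libraries of 1 set alone with the APAP libraries of that set. The Mitosis median ranges from 1.72 to 3.56 and the Circadian clock median from -1.25 to -0.027.

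Among markers of other cells, summed levels overlapped for some lists and were lower after APAP for others. In the Stellate cell and fibroblast list, Col1a1 rose to 17.8, 12.8, 3.01 and 2.04 CPM from 0.0513 to 0.390 CPM, with 11 reads in all PBS libraries, Acta2 rose by 2.79, and Ecm1 fell by 0.69, 3 of 19, while the summed level of the list overlapped (232 to 416 CPM against 289 to 400 CPM). Chil3, a chitinase-like protein of monocytes and alternatively activated macrophages, had no read in any PBS library and 0.698 to 1.16 CPM after APAP, at least 25.5-fold higher against a floor of 3 counts over the PBS group. Ccr2 and Ly6c2, which define classical monocytes, were at 2.09 to 6.45 CPM and 0 to 0.289 CPM after APAP and at 3.59 to 6.84 CPM and 0 to 0.256 CPM after PBS (edgeR adjusted p 0.984 and 0.997). Cd207, a marker of capsular macrophages, fell by 2 on the log2 scale (edgeR adjusted p 0.0163), from 484 to 1614 CPM to 102 to 348 CPM. The Cd207 call was lost against PBS 24 h alone. With 1 library left out, the calls of Cd207 and Acta2 were lost in 5 of the 8 cases each and that of Ecm1 in 7. The Chil3 call was lost without any 1 of the PBS libraries. That of Col1a1 was kept whichever library was left out, but it was lost against PBS 0 h alone. The summed levels of the lists Capsular and monocyte-derived macrophage, B and plasma cell and Erythroid were lower in all 4 APAP libraries (exact permutation test, p = 0.0286 each, 0.1 after adjustment), at 305 to 574 against 601 to 1814 CPM, 359 to 470 against 485 to 574 CPM and 6.24 to 16.9 against 19.5 to 31.6 CPM. The median log2 fold change of their members was 0.998, 0.45 and -1.32, with 6 of 10, 11 of 15 and 2 of 8 positive. In the first 2 lists the sum was thus lower although most members were not. For the other 10 lists of the 14 the adjusted p was 0.2 or more. Ly6g and Cxcr2, which define neutrophils, had no read in any of the 8 libraries, which allows up to 3 reads each in any library. The 11 genes measured of the Neutrophil list had a median log2 fold change of 1.14. By edgeR, 1 of them (Lcn2) was called higher, with 4 positive and 4 negative at an unadjusted p below 0.05. Their summed level was 62.2 to 108 CPM after APAP and 97.5 to 142 CPM after PBS.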

How the data were processed

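Each of the 48 deposited files holds raw counts of reads per gene for 1 library, per the file headers and the values, which were whole numbers throughout. Per the submitters' processing notes, FastQC 0.11.9, HISAT2 2.2.0, SAMtools 1.10, featureCounts 2.0.0 and the mm10 build were used. The strand setting, annotation release and any removal of duplicates are not given in the sources used here.

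Genes were filtered with filterByExpr of edgeR 4.0.16 (R 4.3.3), scaled with TMM factors, and fitted in 1 quasi-likelihood model over all 48 libraries with 1 coefficient per group. The contrast was APAP 48 h minus the average of the PBS 0 h and PBS 24 h coefficients, so a fold can differ from the ratio of CPM values. Tests were 2-sided, with Benjamini-Hochberg adjustment over all genes tested. The 41 program lists and 14 marker lists and the genes given were chosen with earlier results of these data known, and lists have counts and medians but no test. Genes named are a fixed set, the largest changes among called genes with at least 10 CPM and groups that do not overlap (12 each way against PBS, 5 against 36 h and 72 h, 3 between PBS groups), and up to 4 called members of each list. Some of these are counted but not reported here. Members named outside this rule, such as Tnf and the uncalled Mitosis genes, were chosen after their values were seen.

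The replicate numbers of the labels were taken to pair 48 h with 36 h, since r between deviations of same-numbered libraries exceeded 0.1 in every pair over 8446 genes (0.235, 0.263, 0.375 and 0.25). Other libraries of the same set correlated as much, 0.433 for 48 h replicate 1 with 36 h replicate 2 and 0.394 for 48 h replicate 3 with 36 h replicate 4, so the number and the set are not separated by this check. With PBS and 72 h not every pair exceeded 0.1. Procedures were tested on simulated counts. Alternatives were DESeq2 1.42.0, RLE scaling, no filter, fewer groups in the fit, replicate blocks, each PBS group or set alone, the set or the hepatocyte marker sum as a covariate, and each library left out. Positions are those of GENCODE M21, in which all 131 genes looked up were found, 17 overlapping a gene on the same strand and 47 on the other. Promoters are RefSeq's for GRCm38.p6. The SE values come from the quasi-likelihood fit and include the spread between libraries. Floors cover counting error only. Figures used matplotlib 3.10.9.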

Additional observations from a re-analysis of the deposited data

Results flagged for a closer look

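Among 138 sets of 4 values in the APAP 48 h group, 6 had 1 library far from the other 3 by Dixon's criterion, where chance would give about 5% of such sets. APAP replicate 4 was the library in all 6. Its value was 778 CPM for C4b, with the others at 289 to 352 CPM, and 7830 CPM for Cd5l, with the others at 6930 to 7050 CPM. For the hepatocyte-expressed genes it was 3.81 CPM for Mup17 (others 0 to 0.119), 3.51 CPM for Cyp4a12a (others 0 to 0.52) and 8.66 CPM for Acaa1b (others 1.44 to 2.38). The summed level of Neutrophil markers was 108 CPM in replicate 4 and 62.2 to 69.3 CPM in the others.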

How the results depend on the processing

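The 627 calls against PBS were 653 with RLE scaling, 433 without a filter, 820 with the file headers' numbers as a replicate block, 469 against PBS 24 h alone, 877 with the set as a covariate (all 627 included) and 649 with hepatocyte markers as a covariate. They were 948 in a fit of the compared groups only, 1063 with the labels' replicate block, 1040 by DESeq2, 52 against PBS 0 h alone, 997 within set 1 and 51 within set 2, and 175 to 813 with 1 library left out. Within set 1, 53.6% of calls were higher. The 2170 calls against 36 h were 2410 with the replicate block and 1406 to 2121 with 1 library left out, 1406 being without 36 h replicate 3. The 777 against 72 h were 762 with the block, 496 without a filter, 0 in a fit of the 2 groups only, 1178 by DESeq2 and 224 to 984 with 1 library left out. The 9 calls between PBS groups were 117 in a fit of those groups only, 17 with the block, 24 by DESeq2 and 0 to 3 with 1 library left out (0 without PBS 24 h replicate 1, with 594 at an unadjusted p below 0.05). The causes were not tested. The labels' replicate block changed no count against 36 h or 72 h by more than 1.5 times, but it changed the counts against PBS and between PBS groups by more. Under it, 98 of the 101 named genes called against PBS remained called. The labels number the PBS 0 h libraries 1 and 2, while the file headers number them 3 and 4.

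Of these 101 genes, 6 were called under every alternative (Cyp4a10, Kif20a, Cdc20, Il18, Rps19 and Rps20). No named gene that was called changed sign. Of genes not called, the log2 fold change turned for Dbp (1.28 against PBS 0 h, 1.25 in set 2), Dnaja1 (0.737 and 0.328), Bag3 (0.645 and 0.296), Arntl (-0.757 and -0.60), Tab1 (-0.353 and -0.326), Nr1d1 (-0.392 against PBS 24 h) and Hist1h1c (-0.368 against PBS 0 h, -0.188 in set 2, -0.0687 to 0.194 with 1 library left out). It also turned for Cd5l (0.0276 in set 2, and -0.0679 to 0.0432 with 1 library left out), Ccr2 (0.11 against PBS 24 h, 0.0906 in set 2, 0.562 with the hepatocyte covariate, and -0.305 to 0.204 with 1 library left out) and Ly6c2 (-0.348 against PBS 0 h and -0.526 to 2.15 with 1 library left out).

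With 2 libraries per PBS group, PBS time is tied to the set, and the comparisons cannot separate time of collection from treatment at 48 h. Each set held both APAP 48 h and PBS libraries, so set and treatment are not tied. Genes with few reads in PBS, such as Spp1, Osm and Col1a1, have folds of uncertain size.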
